A study of Homo sapiens with 16 samples.

Results

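The messenger RNAs of the hnRNP and SR splicing factors were followed in T47D cells, an established luminal breast cancer line that expresses the estrogen receptor. Members were all protein-coding genes whose symbol begins with HNRNP, or is SRSF and a number, and that reached at least 1 CPM (counts-per-million of assigned reads) in at least 4 of the 16 libraries. Of 39 matching genes, 34 passed, 23 with an HNRNP symbol and 11 with an SRSF symbol, among 16218 tested genes and 78986 features in all. The 5 below that level were SRSF12 and HNRNPCL1, HNRNPCL2, HNRNPCL3 and HNRNPCL4. The hnRNPs are abundant nuclear proteins that coat new transcripts, and many of them repress nearby splice sites. SR proteins carry RNA recognition motifs and a domain rich in arginine and serine, bind exonic enhancers and recruit the spliceosome. Several genes of both families regulate their own messages, through exons that carry an early stop codon and send the transcript to nonsense-mediated decay.

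One genotype had a control guide and the other a knockout of FAH (fumarylacetoacetate hydrolase, which completes the breakdown of tyrosine), and both grew in high-glucose medium with serum. Each genotype received vehicle (DMSO) or 500 nM abemaciclib, a drug that blocks CDK4 and CDK6 and so entry into S phase, for 3 days, which gave 4 groups of 4 libraries. The sources used here give neither the guides nor whether the knockout line is 1 clone. The labels do not state that replicates were grown as separate cultures, so the p-values measure the spread between libraries, which may be technical.

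Depth was 9915815 to 11963096 assigned reads per library. FAH averaged 26.5 ± 1.57 CPM (SD, n = 4) in control vehicle libraries, 24.0 ± 1.35 in control abemaciclib, 6.65 ± 0.323 in knockout vehicle and 5.76 ± 0.744 in knockout abemaciclib libraries. All 7 luminal markers checked were present in every library, from 71.9 CPM upward (ESR1, the estrogen receptor). Their sum moved with the groups. It averaged 7269 CPM in control vehicle, 8382 in control abemaciclib, 10626 in knockout vehicle and 12606 CPM in knockout abemaciclib libraries. The 4 leukocyte markers summed to 3.63 to 5.19 CPM in control vehicle, 2.55 to 3.08 in control abemaciclib, 2.86 to 3.58 in knockout vehicle and 1.59 to 3.11 CPM in knockout abemaciclib libraries. Of 4 fibroblast markers, COL1A1 (40.6 to 60.6 CPM), VIM (11.9 to 19.2) and COL3A1 (2.22 to 5.08) were present in every library and PDGFRB lay between 0 and 0.202 CPM. They summed to 58.0 to 60.9 CPM in control vehicle, 70.0 to 81.3 in control abemaciclib, 66.7 to 75.1 in knockout vehicle and 76.0 to 83.6 CPM in knockout abemaciclib libraries, so they moved with the groups, and their part in the results was not tested. MKI67, a marker of proliferating cells, averaged 89.6 CPM in control vehicle libraries, 12.1 in control abemaciclib, 84.2 in knockout vehicle and 5.13 in knockout abemaciclib libraries.

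The promoters of 4 members are shown because these genes had the largest changes with abemaciclib in control cells among members with a promoter sequence (SRSF3, SRSF7 and HNRNPA2B1 downward, HNRNPH2 upward). Each runs from 250 bases before to 50 bases after a RefSeq start site in GRCh38.p14, 5′ to 3′ on the gene's own strand. Capitals mark CCAAT, the sequence TATAAA or CACGTG, read on either strand, so that CCAAT on the other strand appears as its complement ATTGG. SRSF3 lies at chr6:36594112-36594411 (plus strand), SRSF7 at chr2:38751312-38751611 (minus strand, the 1 of its 2 RefSeq start sites whose window holds a marked motif), HNRNPA2B1 at chr7:26200697-26200996 (minus strand) and HNRNPH2 at chrX:101407972-101408271 (plus strand).
SRSF3: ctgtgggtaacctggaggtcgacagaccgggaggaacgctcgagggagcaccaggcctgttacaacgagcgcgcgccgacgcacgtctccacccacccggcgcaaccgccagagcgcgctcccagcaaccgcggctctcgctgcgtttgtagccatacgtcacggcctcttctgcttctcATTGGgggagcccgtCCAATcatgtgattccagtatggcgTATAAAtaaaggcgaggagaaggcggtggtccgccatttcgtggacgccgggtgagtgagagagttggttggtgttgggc
SRSF7: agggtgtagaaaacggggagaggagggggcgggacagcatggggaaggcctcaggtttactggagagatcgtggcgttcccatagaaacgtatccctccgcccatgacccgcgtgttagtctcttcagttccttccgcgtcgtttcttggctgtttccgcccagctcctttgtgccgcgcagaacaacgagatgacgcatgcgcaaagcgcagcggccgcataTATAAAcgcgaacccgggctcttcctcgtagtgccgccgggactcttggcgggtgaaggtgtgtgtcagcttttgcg
HNRNPA2B1: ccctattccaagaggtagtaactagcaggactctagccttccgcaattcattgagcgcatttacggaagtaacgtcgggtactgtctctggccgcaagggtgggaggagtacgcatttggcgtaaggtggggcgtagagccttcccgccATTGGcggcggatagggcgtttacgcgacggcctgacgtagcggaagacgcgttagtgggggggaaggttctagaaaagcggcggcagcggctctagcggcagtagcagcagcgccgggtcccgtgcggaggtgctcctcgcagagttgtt
HNRNPH2: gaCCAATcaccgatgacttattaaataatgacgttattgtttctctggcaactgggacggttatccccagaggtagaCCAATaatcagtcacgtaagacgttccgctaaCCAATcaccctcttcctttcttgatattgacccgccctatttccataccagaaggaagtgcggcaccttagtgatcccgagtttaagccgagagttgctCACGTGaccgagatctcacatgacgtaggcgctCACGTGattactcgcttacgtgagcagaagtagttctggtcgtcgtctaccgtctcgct

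In SRSF3 the TATAAA begins 30 bases before the start site, after 2 CCAAT boxes at positions -70 and -55. In SRSF7 it begins at -27. HNRNPA2B1 has 1 CCAAT box, at -101, and neither of the other motifs. HNRNPH2 has 3 CCAAT boxes, at -248, -173 and -141, and 2 copies of CACGTG, the E-box read by MYC and by the TFEB family of lysosomal regulators, at -42 and -9. Of the 34 members, 31 had RefSeq promoters, 45 promoters in all, and HNRNPA1, HNRNPA1L3 and SRSF2 were not among them. CCAAT was found in 20 of these 31 members (64.5%, against 39.7% of the 27305 genes with such promoters). The same CCAAT box is counted for HNRNPUL2 and for HNRNPUL2-BSCL2, whose promoter windows overlap. A gene was counted if any of its promoters held the motif, and the 27305 genes had 35116 promoters. CACGTG was found in 7 (22.6% against 8.77%), namely HNRNPA3, HNRNPD, HNRNPDL, HNRNPH2, HNRNPH3, HNRNPM and HNRNPUL1. TATAAA was found in 6 (19.4% against 14% of genes): near the start site in HNRNPAB, SRSF3 and SRSF7, and over 100 bases before it in HNRNPC, HNRNPD and SRSF11. The E2F motif (TTTCCCGC or TTTGGCGC or TTTCGCGC) was found in HNRNPLL, HNRNPUL1 and SRSF10 (9.68% against 3.3%). The ETS motif CCGGAAGT was found in HNRNPD, SRSF4 and SRSF5 (9.68% against 4.95%), and the interferon element in HNRNPD and HNRNPU (6.45% against 4.38%). The NRF1 motif (1.52% of genes) and the YY1 motif AAGATGGCG (2.14% of genes) were in none of the 31. Members' promoters were richer in G and C than promoters at large, with a median of 64.7% against 58.7%. These backgrounds hold all genes with such promoters, whether or not they were expressed here. Shares among tested or abundant genes were not computed, so the differences cannot be read as particular to splicing factors.

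Abemaciclib lowered most of the family. In control cells 27 of the 34 members fell and 2 rose, and in knockout cells 26 fell and 1 rose (limma on log2(CPM + 1), Benjamini-Hochberg adjusted p under 0.05 over all tested genes). Of all tested genes, 31.1% fell and 19.6% rose in control cells, and 27.4% fell and 11% rose in knockout cells. Most members are abundant, and among the 6562 genes of at least 20 mean CPM the shares that fell were 41.9% in control and 36.1% in knockout cells. The median log2 fold change of the members was -0.37 in control cells and -0.30 in knockout cells, against -0.05 and -0.07 for all tested genes. The same 25 members fell in both genotypes, where 21.5% of tested genes, and 30.8% of those of at least 20 mean CPM, did so. The drug comparisons in the 2 genotypes share no libraries. Both use the same estimate of each gene's spread, from the fit to all 16 libraries, so their calls are not independent.

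**Figure D1:**
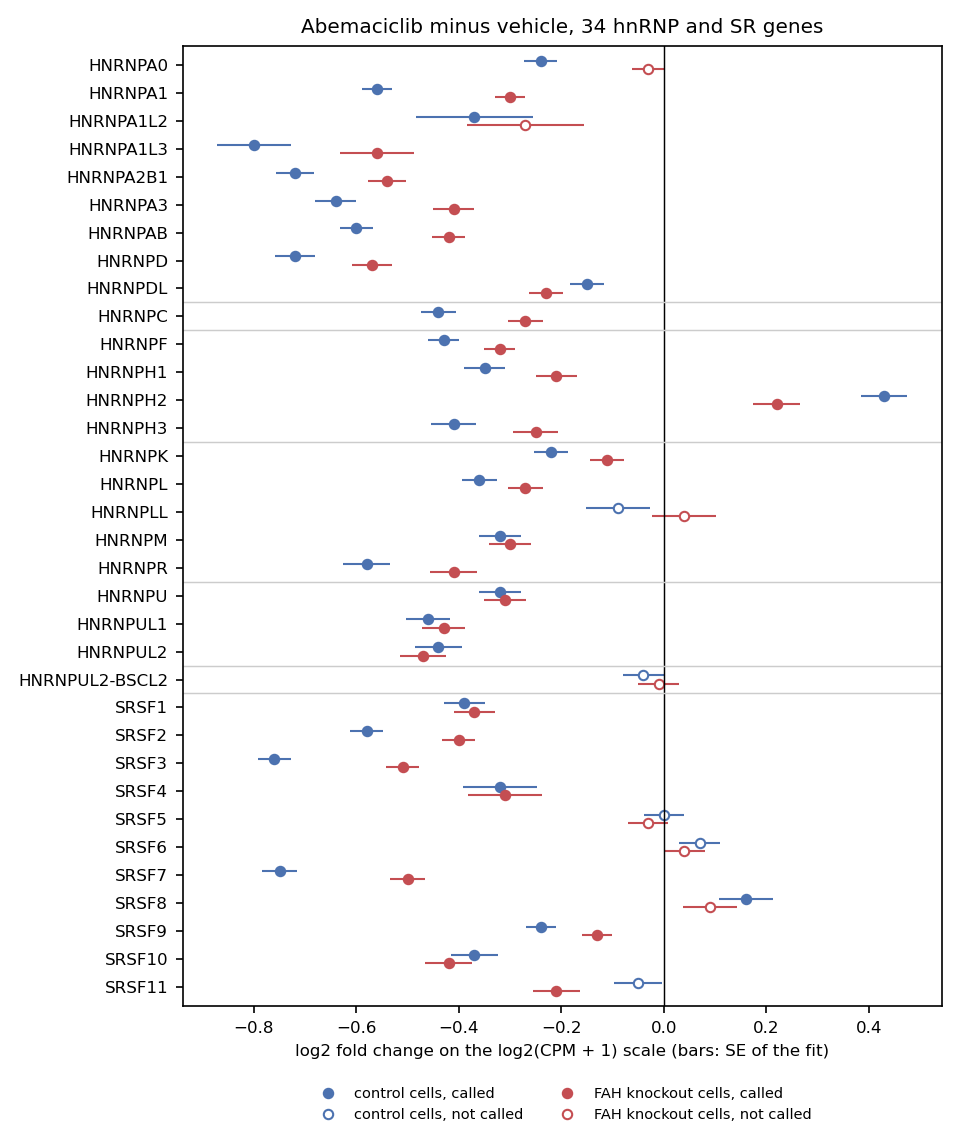
Log2 fold change of abemaciclib against vehicle for the 34 members (rows, grouped by type), in control cells (blue) and FAH knockout cells (red), with the standard error of the fit as bars. Filled points passed the adjusted p of 0.05, and HNRNPH2 stands at 0.43 and 0.22 to the right of 0 while most members lie to the left of it.

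Together the 34 members took 0.761% ± 0.0160 (SD, n = 4) of assigned reads in control vehicle libraries and 0.569% ± 0.0114 in control abemaciclib libraries. The shares in knockout cells were 0.773% ± 0.0140 with vehicle and 0.628% ± 0.0113 with abemaciclib. The hnRNP members took 0.557%, 0.413%, 0.568% and 0.460% of reads in control vehicle, control abemaciclib, knockout vehicle and knockout abemaciclib libraries, and the SR members 0.204%, 0.157%, 0.206% and 0.169%. For each sum, drug and vehicle libraries of a genotype did not overlap. CPM is a share of the library, and in bulk RNA fewer cells of a kind and less RNA per cell cannot be told apart. The share of reads from mitochondrially encoded genes moved with the groups too, at 10.9%, 14.9%, 11.7% and 13.4% in the same order. With CPM recomputed over the other reads, 27 members fell and 3 rose in control cells, and 26 fell and 1 rose in knockout cells.

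All 9 hnRNP A, B and D members fell with abemaciclib in control cells and 7 of 9 (77.8%) in knockout cells, with medians of -0.60 and -0.41. Of all tested genes, 31.1% fell in control and 27.4% in knockout cells, and of those of at least 20 mean CPM 41.9% and 36.1%. Gene positions here are those of GENCODE release 29 on GRCh38. HNRNPA2B1 (ENSG00000122566, chr7:26173057-26201529, minus strand), which binds exonic and intronic RNA and sorts microRNAs and messages, had 538, 586, 610 and 555 CPM in control vehicle libraries and 370, 348, 332 and 334 CPM with abemaciclib. Its knockout libraries had 574, 550, 541 and 512 CPM with vehicle and 375, 373, 373 and 376 CPM with abemaciclib. Drug and vehicle libraries did not overlap in either genotype. Members shown by library, here and below, were mostly picked by the size of a change. Separation of their libraries is therefore no further support for that change, and how many tested genes were so separated was not computed. The log2 fold change was -0.72 ± 0.0375 (SE, adjusted p = 1.4e-17, limma) in control cells and -0.54 ± 0.0375 (adjusted p = 5.9e-14) in knockout cells.

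HNRNPD (AUF1; ENSG00000138668, chr4:82352498-82374503, minus strand), which binds AU-rich elements and hastens the decay of such messages, had 224, 229, 235 and 212 CPM in control vehicle libraries and 138, 145, 131 and 131 CPM in control abemaciclib libraries. In knockout cells it had 216, 219, 207 and 217 CPM with vehicle and 137, 149, 143 and 150 CPM with abemaciclib. Every drug library was below every vehicle library of its genotype. The fall was -0.72 ± 0.0388 in control cells and -0.57 ± 0.0388 in knockout cells, where no other member fell further.

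HNRNPA1 (ENSG00000135486, chr12:54280193-54287088, plus strand), a repressor of exons and the member with the highest CPM, had 657, 674, 658 and 636 CPM in control vehicle and 447, 438, 449 and 449 CPM in control abemaciclib libraries. In knockout cells the values were 681, 668, 644 and 663 CPM with vehicle and 513, 549, 561 and 533 CPM with abemaciclib. All groups but the 2 vehicle groups were separate. The drug effect was -0.56 ± 0.0296 in control and -0.30 ± 0.0296 in knockout cells.

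HNRNPA1L3, a processed relative of HNRNPA1, had the lowest fold change in control cells. It had 30.4, 30.3, 29.4 and 32.4 CPM with vehicle and 18.4, 15.4, 15.2 and 19.9 CPM with abemaciclib there, a change of -0.80 ± 0.0717. The knockout libraries had 31.2, 29.3, 29.4 and 32.8 CPM with vehicle and 18.5, 22.2, 21.2 and 20.2 CPM with abemaciclib, a change of -0.56 ± 0.0717. Its near-identical parent makes these values uncertain, since only 3 of its 16 library values were whole reads and reads can be split between copies. HNRNPA1L2, another such copy and the member with the lowest CPM, had 2.62, 2.69, 3.04 and 2.34 CPM in control vehicle and 2.09, 1.54, 2.0 and 1.74 CPM in control abemaciclib libraries. In knockout cells it had 2.93, 2.95, 3.02 and 3.48 CPM with vehicle and 2.34, 2.80, 2.17 and 2.28 CPM with abemaciclib. It fell by 0.37 on the log2 scale in control cells, and its -0.27 in knockout cells was not called (adjusted p = 0.0587).

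Of the others in that group, HNRNPA3 fell by 0.64 and 0.41, HNRNPAB by 0.60 and 0.42, and HNRNPDL, the close relative of HNRNPD, by 0.15 and 0.23 on the log2 scale in control and knockout cells. HNRNPA0, a single-exon gene whose protein binds AU-rich elements, fell from a mean of 293 to 248 CPM in control cells (-0.24 ± 0.0323) and stood at 303 and 296 CPM in knockout cells (-0.03 ± 0.0323, adjusted p = 0.477). The call of HNRNPDL in control cells did not hold under quantile normalization (-0.03).

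HNRNPC, which forms the core tetramer that measures out long transcripts and keeps U2AF from cryptic exons, had 261, 246, 258 and 247 CPM in control vehicle and 194, 185, 183 and 181 CPM in control abemaciclib libraries. Knockout libraries had 229, 232, 227 and 216 CPM with vehicle and 191, 189, 182 and 187 CPM with abemaciclib. The 2 drug groups overlapped each other, and each lay below the vehicle libraries of its genotype. The change was -0.44 ± 0.0336 in control cells and -0.27 ± 0.0336 in knockout cells.

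The hnRNP F and H proteins bind runs of G. HNRNPF, HNRNPH1 and HNRNPH3 fell with abemaciclib in both genotypes, whereas HNRNPH2 rose in both. HNRNPH1 had 202, 196, 195 and 185 CPM in control vehicle libraries and 166, 157, 144 and 145 CPM with abemaciclib, against 214, 216, 210 and 214 CPM and then 181, 190, 191 and 176 CPM in knockout cells. Its log2 fold change was -0.35 ± 0.0400 in control and -0.21 ± 0.0400 in knockout cells. HNRNPF fell from 510 to 379 and from 505 to 404 CPM, and HNRNPH3 from 166 to 125 and from 175 to 146 CPM.

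HNRNPH2 (ENSG00000126945, chrX:101408295-101414133, plus strand), the X-linked paralog of HNRNPH1, had 55.1, 58.3, 53.0 and 53.6 CPM in control vehicle libraries and 79.5, 75.6, 70.3 and 72.5 CPM in control abemaciclib libraries. In knockout cells it had 73.7, 73.3, 75.6 and 72 CPM with vehicle and 81.2, 89.8, 89.6 and 82.5 CPM with abemaciclib. The control vehicle libraries were lowest and the knockout abemaciclib libraries highest, with no overlap between drug and vehicle in either genotype. It rose by 0.43 ± 0.0456 (adjusted p = 9.7e-10, limma) in control cells and by 0.22 ± 0.0456 (adjusted p = 2.6e-04) in knockout cells. The ratio of HNRNPH2 to HNRNPH1 CPM, not corrected for length, was 0.283 ± 0.0128 (SD, n = 4) in control vehicle, 0.488 ± 0.00879 in control abemaciclib, 0.345 ± 0.0106 in knockout vehicle and 0.465 ± 0.0102 in knockout abemaciclib libraries. A readthrough gene, RPL36A-HNRNPH2, overlaps HNRNPH2 on the same strand. Its mean was 417 CPM in control vehicle, 402 in control abemaciclib, 391 in knockout vehicle and 399 in knockout abemaciclib libraries, and its drug effect was not called in either genotype (-0.06 and 0.03). HNRNPH2 was read in whole reads in 5 of 16 libraries, so its values are uncertain in the sense given at the end.

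GLA, the lysosomal alpha-galactosidase, starts 283 bases from HNRNPH2 and is transcribed the other way (GENCODE release 29, GRCh38). It had 14.3, 13.2, 12.8 and 13.9 CPM in control vehicle and 17.3, 17.3, 18.2 and 18.4 CPM in control abemaciclib libraries. The knockout libraries had 21, 20.3, 21.3 and 19.3 CPM with vehicle and 26.2, 28.2, 23.8 and 24.4 CPM with abemaciclib. No 2 of the 4 groups overlapped. GLA rose with abemaciclib by 0.37 ± 0.0650 in control cells and 0.31 ± 0.0650 in knockout cells, and was higher in knockout cells by 0.56 under vehicle and 0.50 under abemaciclib.

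**Figure D2:**
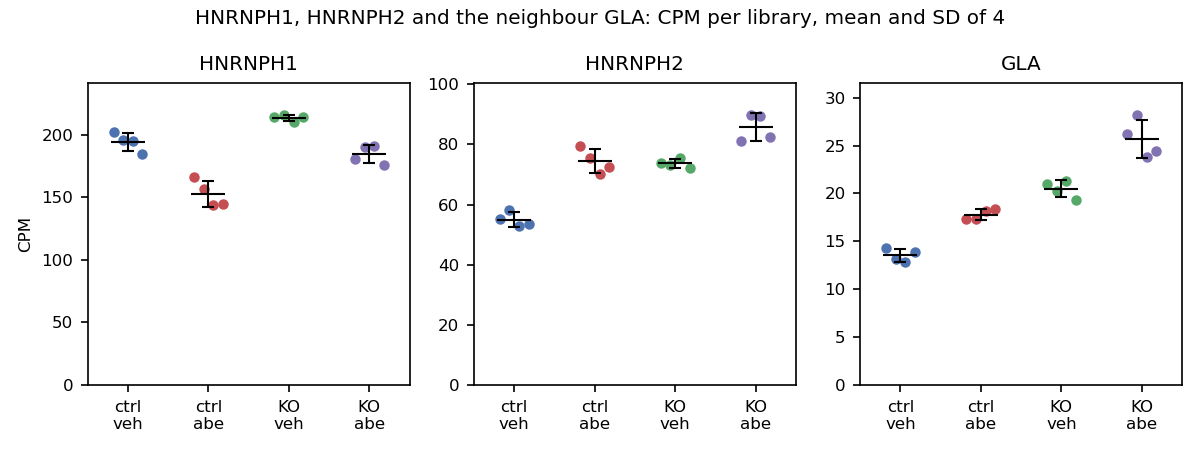
CPM of HNRNPH1, HNRNPH2 and the divergent neighbour GLA in the 16 libraries (points), by group, with the mean and SD of 4 libraries in black. HNRNPH1 falls with abemaciclib in both genotypes, while HNRNPH2 (55 to 74.5 and 73.7 to 85.8 CPM) and GLA (13.5 to 17.8 and 20.5 to 25.7 CPM) rise.

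Among the hnRNP K, L, M and R members, 4 of 5 (80.0%) fell with abemaciclib in each genotype. The shares of all tested genes that fell were 31.1% in control and 27.4% in knockout cells, and 41.9% and 36.1% for genes of at least 20 mean CPM. HNRNPM, which represses exons and takes part in the splicing switch of CD44 in breast cells, had 246, 256, 252 and 242 CPM in control vehicle libraries and 201, 211, 198 and 186 CPM with abemaciclib. In knockout cells it had 312, 292, 298 and 303 CPM with vehicle and 221, 251, 259 and 251 CPM with abemaciclib. The fall was -0.32 ± 0.0404 in control and -0.30 ± 0.0404 in knockout cells, and knockout libraries were above control libraries of the same treatment without overlap.

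HNRNPK, a poly(C)-binding protein, had 344, 336, 338 and 321 CPM in control vehicle and 288, 289, 292 and 283 CPM in control abemaciclib libraries. Knockout libraries had 324, 317, 294 and 313 CPM with vehicle and 283, 302, 281 and 287 CPM with abemaciclib, and these 2 groups overlapped. It fell by 0.22 on the log2 scale in control cells and by 0.11 in knockout cells. The second call was lost under median-of-ratios rescaling (-0.02) and quantile normalization (-0.06).

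HNRNPR fell by 0.58 and 0.41 and HNRNPL, a binder of CA repeats, by 0.36 and 0.27 in control and knockout cells. HNRNPLL, the relative of HNRNPL known for CD45 splicing in lymphocytes, was not called with abemaciclib in either genotype (-0.09 ± 0.0625 and 0.04 ± 0.0625). It had 20.6, 19.8, 22.0 and 21.6 CPM in control vehicle and 19.5, 20.8, 18.1 and 20.3 CPM in control abemaciclib libraries. Its knockout libraries had 24.0, 26.2, 25.4 and 25.8 CPM with vehicle and 25.1, 29, 25.8 and 24.8 CPM with abemaciclib, above all control libraries.

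The 3 hnRNP U members, which bind RNA and the nuclear scaffold, fell in both genotypes, with interactions of -0.03 to 0.03 that were not called. Falls in both genotypes were called for 21.5% of tested genes and 30.8% of those of at least 20 mean CPM. HNRNPU went from a mean of 346 to 277 CPM in control and from 377 to 304 CPM in knockout cells (-0.32 and -0.31). HNRNPUL1 went from 219 to 159 and from 222 to 165 CPM (-0.46 and -0.43). HNRNPUL2 went from 89.2 to 65.8 and from 94.1 to 67.8 CPM (-0.44 and -0.47). The readthrough HNRNPUL2-BSCL2 was not called with the drug (-0.04 and -0.01), and neither was the gene BSCL2 that it overlaps (-0.02 and 0.01).

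The SR proteins divided. Of 11 members, 7 fell (63.6%) and 1 rose in control cells, and 8 fell (72.7%) and none rose in knockout cells, with medians of -0.32 and -0.31. Falls were called for 31.1% of all tested genes in control and 27.4% in knockout cells. Among genes of at least 20 mean CPM the shares were 41.9% and 36.1%. SRSF3 (ENSG00000112081, chr6:36594353-36605600, plus strand), a small SR protein with roles in exon inclusion and RNA export, had 412, 411, 413 and 393 CPM in control vehicle and 229, 243, 249 and 243 CPM in control abemaciclib libraries. In knockout cells it had 394, 389, 393 and 403 CPM with vehicle and 271, 286, 288 and 264 CPM with abemaciclib. Drug and vehicle libraries were far apart, and knockout drug libraries lay above control drug libraries. SRSF3 fell by 40.9% in control cells (log2 -0.76 ± 0.0328, adjusted p = 1.1e-19, limma) and by 29.8% in knockout cells (-0.51 ± 0.0328, adjusted p = 7.6e-15).

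SRSF7 (ENSG00000115875, chr2:38743599-38751494, minus strand), which has a zinc knuckle and shares export and polyadenylation roles with SRSF3, had 204, 211, 199 and 207 CPM in control vehicle and 116, 124, 124 and 123 CPM in control abemaciclib libraries. The knockout libraries had 193, 187, 184 and 183 CPM with vehicle and 132, 129, 132 and 134 CPM with abemaciclib. None of the 4 groups overlapped. It fell by 0.75 ± 0.0340 in control cells and by 0.50 ± 0.0340 in knockout cells on the log2 scale, and was the only member read in whole reads in all 16 libraries.

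SRSF2, the SR protein mutated in myeloid malignancies, had 320, 324, 297 and 321 CPM in control vehicle and 211, 209, 218 and 208 CPM in control abemaciclib libraries. In knockout cells it had 349, 332, 330 and 339 CPM with vehicle and 255, 253, 261 and 254 CPM with abemaciclib. Its changes were -0.58 ± 0.0321 and -0.40 ± 0.0321, and none of the 4 groups overlapped. SRSF1, the prototype of the family and a proto-oncogene in breast epithelium, fell by 0.39 and 0.37, SRSF10 by 0.37 and 0.42, SRSF4 by 0.32 and 0.31, and SRSF9 by 0.24 and 0.13 on the log2 scale. Rescaling by the median of ratios ended the call of SRSF9 in knockout cells (-0.04).

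SRSF5 and SRSF6, regulators of alternative exons, were not called with the drug in either genotype. SRSF5 averaged 160 CPM with vehicle and 159 with abemaciclib in control cells (-0.00 ± 0.0390), and 162 and 158 CPM in knockout cells (-0.03 ± 0.0390). Under quantile normalization SRSF5 was called higher in control cells (0.11). SRSF6 had 123, 117, 118 and 109 CPM in control vehicle and 124, 128, 118 and 121 CPM in control abemaciclib libraries, and 132, 137, 130 and 130 and then 140, 139, 134 and 129 CPM in knockout cells. Its 0.07 and 0.04 became 0.14 and 0.13, both called higher, under median-of-ratios rescaling.

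SRSF8, an expressed retrogene of SRSF2, had 31.7, 31.3, 35.1 and 32.7 CPM in control vehicle and 34.8, 38.1, 35.8 and 38.0 CPM in control abemaciclib libraries, which overlapped. It had 35.9, 35.2, 36.0 and 33.5 CPM with vehicle and 36.5, 37.5, 36.0 and 39.7 CPM with abemaciclib in knockout cells. It rose by 0.16 ± 0.0525 in control cells (adjusted p = 0.0108, limma), and its 0.09 ± 0.0525 in knockout cells was not called. SRSF11 had 122, 124, 138 and 131 CPM in control vehicle and 141, 122, 118 and 119 CPM in control abemaciclib libraries, where replicate 1 stood apart. Knockout libraries had 131, 129, 131 and 128 CPM with vehicle and 114, 109, 107 and 117 CPM with abemaciclib, a fall of 0.21 on the log2 scale. Its -0.05 in control cells was not called, but without control abemaciclib replicate 1 it was -0.10 and called (adjusted p = 0.0355, the lowest of 24 alternatives, which reached 0.874).

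**Figure D3:**
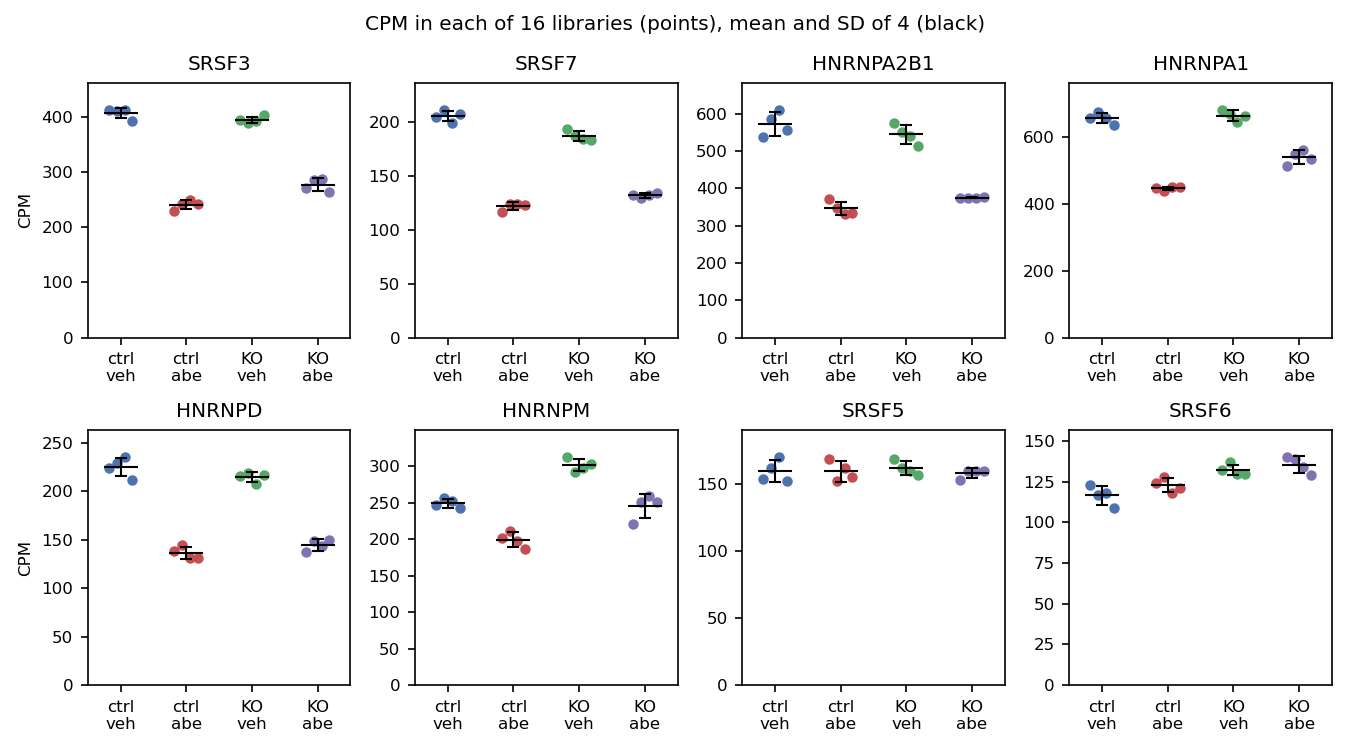
CPM of 8 members in the 16 libraries (points), by group (ctrl, control guide; KO, FAH knockout; veh, vehicle; abe, abemaciclib), with the mean and SD of 4 libraries in black. SRSF3 goes from a mean of 407 to 241 CPM in control and from 395 to 277 CPM in knockout cells, while SRSF5 stays between means of 158 and 162 CPM.

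The comparison of knockout with control asks how these genes differ between the knockout cells and the control cells. Loss of FAH cannot be told apart here from other differences between them, such as those of guide or clone. Under vehicle, 10 members were higher and 3 lower in knockout cells, where 24.6% of all tested genes were higher and 13.1% lower (32.0% and 20% of those of at least 20 mean CPM). The members' median was 0.04 against 0.06 for all tested genes. With median-of-ratios rescaling, which moved the median of all genes by -0.06, the split was 5 higher and 8 lower, so the direction of the small changes depends on the scaling. HNRNPH2 (0.42 ± 0.0456, adjusted p = 5.7e-09), HNRNPM (0.27 ± 0.0404), HNRNPLL (0.26 ± 0.0625) and SRSF6 (0.18 ± 0.0396) had the largest increases, and they remained called under every one of the 24 alternatives. The 3 lower members were HNRNPC (-0.16 ± 0.0336), SRSF7 (-0.14 ± 0.0340) and HNRNPK (-0.10 ± 0.0332). HNRNPK's groups overlapped, and 4 alternatives ended its call, among them leaving out control vehicle replicate 1 (-0.09) or knockout vehicle replicate 3 (-0.07).

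**Figure D4:**
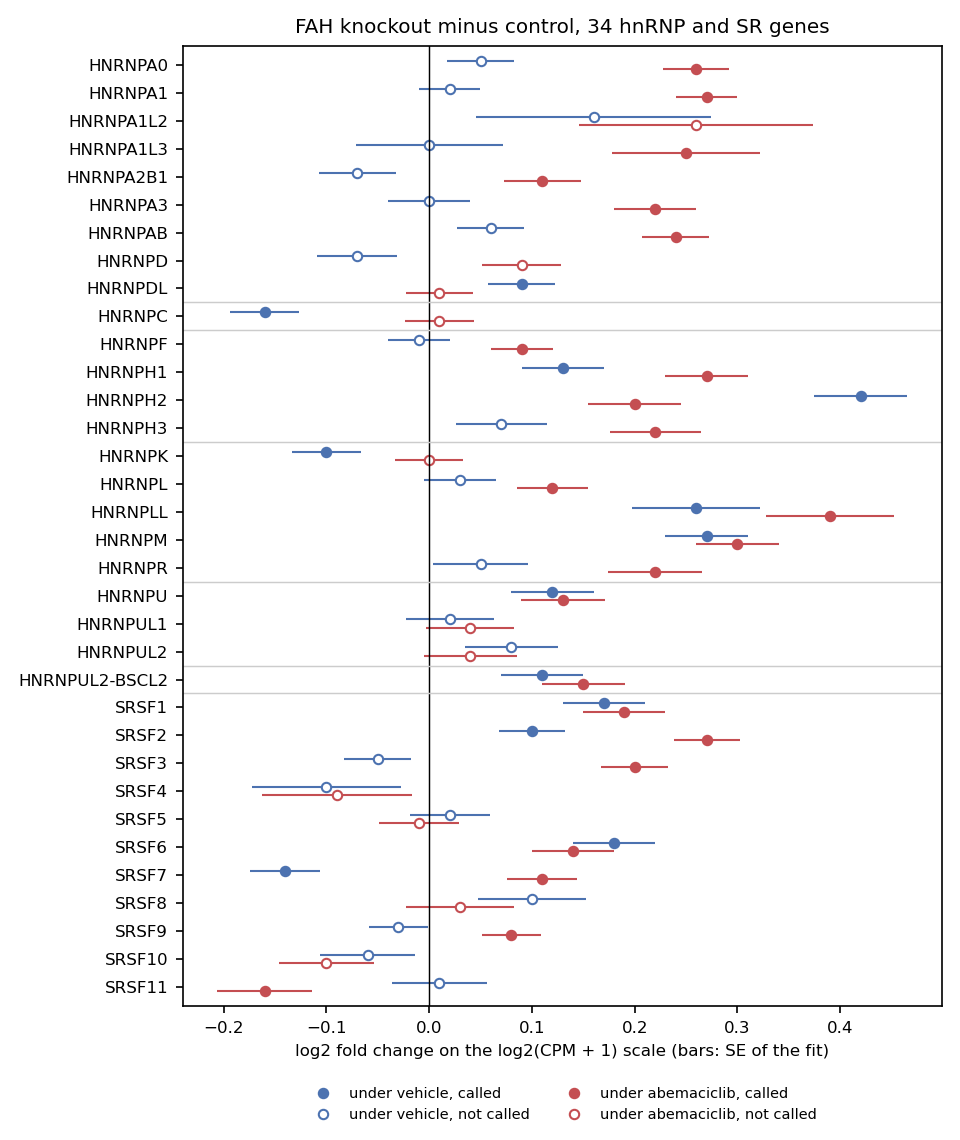
Log2 fold change of FAH knockout against control for the 34 members (rows, grouped by type), under vehicle (blue) and under abemaciclib (red), with the standard error of the fit as bars. Filled points passed the adjusted p of 0.05, with HNRNPH2 at 0.42 and 0.20 and HNRNPLL at 0.26 and 0.39.

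Under abemaciclib, 22 members were higher and 1 was lower in knockout cells, where 18.6% of all tested genes were higher and 11.3% lower. Among genes of at least 20 mean CPM these shares were 28.5% and 14%. The members' median was 0.14, against 0.04 for all tested genes. Median-of-ratios rescaling gave 14 higher and 2 lower. The largest increases were those of HNRNPLL (0.39 ± 0.0625), HNRNPM (0.30 ± 0.0404), SRSF2 (0.27 ± 0.0321) and HNRNPA1 (0.27 ± 0.0296). For each of these 4 the knockout libraries lay above all control libraries of that treatment. They were picked by this same change, so their separation is no further support for it. The share of all tested genes so separated was not computed. HNRNPH1 (0.27 ± 0.0400), HNRNPA0 (0.26 ± 0.0323) and HNRNPAB (0.24 ± 0.0328) were close behind. SRSF11 was the single lower member (-0.16 ± 0.0463, adjusted p = 0.00868, limma). Without control abemaciclib replicate 1 its change was -0.10 and no longer called (adjusted p = 0.0627; range over the 24 alternatives 4.5e-04 to 0.0662). Higher in knockout cells under both treatments were 9 members (12.1% of tested genes, and 18.8% of those of at least 20 mean CPM, were so): HNRNPM, HNRNPH1, HNRNPH2, HNRNPLL, HNRNPU, HNRNPUL2-BSCL2, SRSF1, SRSF2 and SRSF6. With median-of-ratios rescaling 4 of the 34 members were higher under both, where 8.06% of tested genes were so. These were HNRNPH2, HNRNPLL, HNRNPM and SRSF1, all among the 9. Quantile normalization gave 9 of the 34, where 8.62% of tested genes were so. Of those, 6 were among the 9 above, and HNRNPA0, HNRNPA1 and HNRNPAB were not. HNRNPU, HNRNPUL2-BSCL2 and SRSF2 each lost a call in some fits without 1 library, which had 7 to 9 members higher under both. The fewest, 7, came without control vehicle replicate 3 and without knockout vehicle replicate 1. BSCL2, which HNRNPUL2-BSCL2 overlaps on the same strand, was also higher in knockout cells (0.13 under vehicle and 0.16 under abemaciclib). HNRNPUL2 itself was called under neither treatment (0.08 and 0.04).

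The interaction asks whether the drug effect differed between genotypes, which is the same as asking whether the knockout effect differed between treatments. The group comparisons share libraries with each other, so their values are given side by side. It was called above 0 for 9 members and below 0 for 1, against 4.68% and 6.16% of all tested genes. For genes of at least 20 mean CPM, 10.0% and 9.51% were called above and below 0. The 9 were HNRNPA1 (0.26 ± 0.0419), SRSF7 (0.25 ± 0.0481), SRSF3 (0.25 ± 0.0464), HNRNPA3 (0.22 ± 0.0566), HNRNPA0 (0.21 ± 0.0457), HNRNPA2B1 (0.19 ± 0.0530), SRSF2 (0.18 ± 0.0454), HNRNPAB (0.18 ± 0.0465) and HNRNPC (0.18 ± 0.0476), and each of them fell less in knockout cells. Called or not, the estimate was above 0 for 26 of 34 members, for 44.5% of all tested genes and for 48.5% of those of at least 20 mean CPM. Of the 25 members lower with the drug in both genotypes, 22 had the fold change nearer 0 in knockout cells; the same held for 63.6% of the 3485 tested genes lower in both, and for 70.2% of those of at least 20 mean CPM. HNRNPH2 was the 1 member below 0 (-0.21 ± 0.0645, adjusted p = 0.0267), as it rose less in knockout cells. Of its 23 alternatives, 9 ended that call, with adjusted p from 0.00654 to 0.0957. Leaving out 1 library ended it for control vehicle 3 (-0.20) and 4 (-0.20), control abemaciclib 1 (-0.18) and 2 (-0.21), knockout vehicle 3 (-0.20), and knockout abemaciclib 1 (-0.19) and 4 (-0.20). Leaving out control vehicle replicate 3 (0.15) or knockout vehicle replicate 4 (0.16) also ended the interaction of HNRNPA2B1, whereas those of HNRNPA1, SRSF3 and SRSF7 held in all 23 alternatives. Quantile normalization ended 6 of the 10 calls (HNRNPA0, HNRNPA2B1, HNRNPA3, HNRNPAB, HNRNPC and SRSF2), and a fit without the mean-variance trend ended 6 (HNRNPA2B1, HNRNPA3, HNRNPAB, HNRNPC, HNRNPH2 and SRSF2).

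The wider splicing machinery was read from lists of genes. Beside their counts stand those of all tested genes, of which 31.1% fell and 19.6% rose with abemaciclib in control cells (41.9% and 24.9% of abundant genes, those of at least 20 mean CPM), and 27.4% fell and 11% rose in knockout cells (36.1% and 16.8%). The median of all tested genes was -0.05 in control and -0.07 in knockout cells. Of 19 tested hnRNP-type proteins under other symbols, 17 fell (89.5%) and 1 rose with abemaciclib in control cells, and 16 fell (84.2%) and 1 rose in knockout cells, with medians of -0.35 and -0.25. PTBP1, the polypyrimidine tract repressor, fell from 175 to 125 CPM (-0.48) in control and from 191 to 140 CPM (-0.44) in knockout cells. PCBP4, a poly(C)-binding protein, was the one that rose (0.44 and 0.36).

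Of 42 spliceosomal snRNP core genes, 35 fell (83.3%) and 2 rose in control cells, and 33 fell (78.6%) and 2 rose in knockout cells, with medians of -0.37 and -0.24. The Sm protein genes SNRPG (374 to 164 CPM, -1.19 ± 0.0401) and SNRPB (271 to 144 CPM, -0.90 ± 0.0350) fell most in control cells, and by 0.69 and 0.62 on the log2 scale in knockout cells. Under vehicle, knockout cells had less SNRPG (-0.44) and SNRPB (-0.41). In that comparison 11 of the 42 were lower (26.2%, against 13.1% of all tested genes and 20% of abundant ones). Another 7 were higher (16.7%, against 24.6% of all tested genes and 32.0% of abundant ones). Of the 42, 15 (35.7%, against 4.68% of all tested genes and 10.0% of abundant ones) had an interaction called above 0, and 1 below 0. The highest were those of SNRPG (0.50 ± 0.0567), SNRPC (0.34) and SNRPD2 (0.32).

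Of 19 SR-related proteins and U2AF subunits, 8 fell (42.1%) and 1 rose in control cells, near the share of abundant genes, and 11 fell (57.9%) in knockout cells, with medians of -0.11 and -0.14. TRA2B, an SR-like activator of exons, had the largest fall in both (196 to 126 CPM, -0.63, and 188 to 130 CPM, -0.53), ahead of SRRM1 (-0.37 and -0.40). In knockout cells 4 of the 19 were higher (21.1%, against 24.6% of all tested genes) and 2 lower (10.5%, against 13.1%) under vehicle. Under abemaciclib 4 were higher (21.1%, against 18.6%) and 3 lower (15.8%, against 11.3%). TRA2A (0.18 and 0.34) and U2AF1 (0.22 and 0.21) were higher in knockout cells under both treatments. RSRC1 (-0.37 and -0.26) and SRRM1 (-0.17 and -0.20) were lower under both.

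A further list held 20 kinase, cyclin, importer and phosphatase genes, not all of which act on SR proteins. Of these, 5 fell (25%) and 4 rose (20%) in control cells, and 8 fell (40%) and 3 rose (15%) in knockout cells. The medians were 0.04 and -0.09. These shares in control cells are at or near those of all tested genes. PPP1CA, a catalytic subunit of protein phosphatase 1, fell from 405 to 252 CPM (-0.69) and from 388 to 282 CPM (-0.46). CCNL2, a cyclin of the CDK11 kinases, rose from 49.4 to 70.2 CPM in control cells (0.50) and from 57.5 to 70.3 CPM in knockout cells (0.29). SRPK3 also rose in both genotypes (0.50 and 0.30), and SRPK1, a cytoplasmic SR kinase, fell in both (-0.34 and -0.24). CLK1 and CLK4, nuclear SR kinases, were higher in knockout cells under vehicle (0.30 and 0.26) and under abemaciclib (0.33 and 0.33).

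Of the 8 genes of the arginine methyltransferases that modify hnRNP and Sm proteins and their partners, 5 fell (62.5%) and none rose in each genotype, with medians of -0.24 and -0.15. PRMT5 fell by 0.36 and 0.30 and PRMT3 by 0.57 and 0.25 on the log2 scale. PRMT5 was higher in knockout cells (0.28 under vehicle and 0.33 under abemaciclib), as was its partner WDR77 (0.25 and 0.27).

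Of 18 nonsense-mediated decay and exon junction genes, 6 fell (33.3%) and 2 rose (11.1%) in control cells, near the share of all tested genes, and 10 fell (55.6%) and none rose in knockout cells, with medians of -0.03 and -0.17. The exon junction genes MAGOHB (25.4 to 12.3 CPM, -0.99), EIF4A3 (-0.63), MAGOH (-0.61) and RBM8A (-0.42) had the largest falls in control cells. Under vehicle 10 of the 18 (55.6%, against 24.6% of all tested genes and 32.0% of abundant ones) were higher in knockout cells and 1 lower, with DHX34 (0.60), UPF1, the helicase of the pathway (46.1 to 58.8 CPM, 0.34), and SMG5 (0.31) in front. Of 21 other splicing regulators, 8 fell (38.1%) and 3 rose (14.3%) in control cells, between the shares of all tested and of abundant genes that fell, and 9 fell (42.9%) and 4 rose (19%) in knockout cells, with medians of -0.04 and -0.12. ESRP1, the epithelial splicing regulator, fell in both (-0.48 and -0.44), as did QKI (-0.42 and -0.43), whereas MBNL2, known from muscle and differentiated tissue, rose (0.52 and 0.50).

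**Figure D5:**
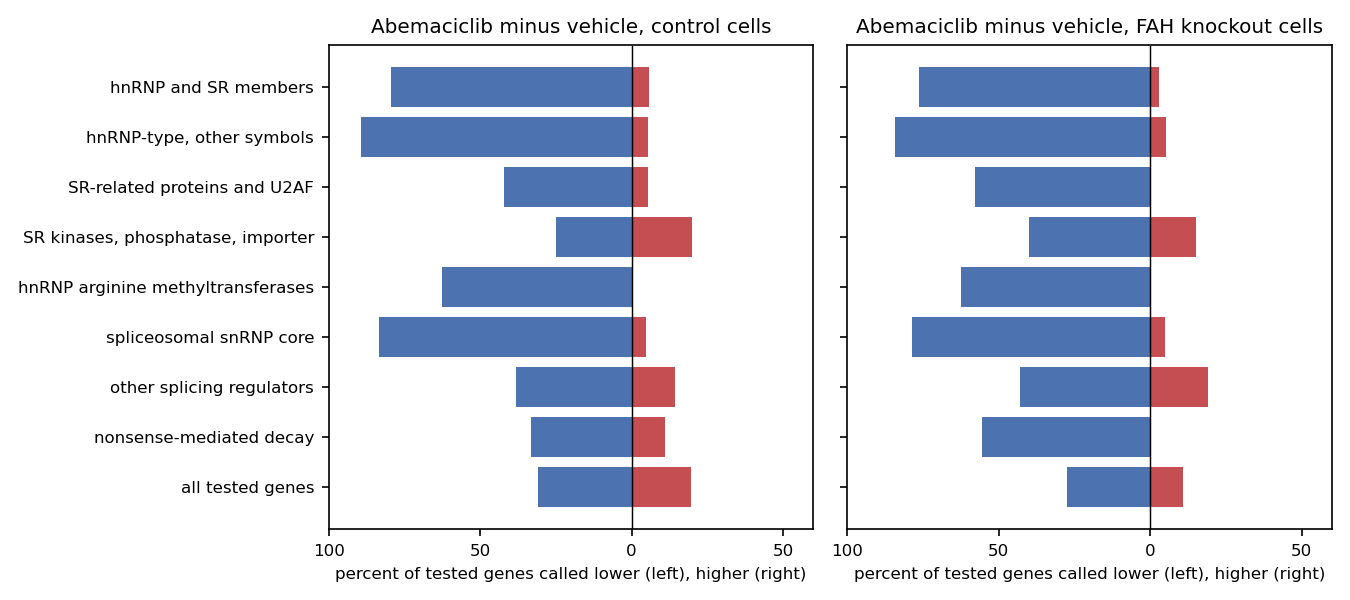
Percent of tested genes called lower (blue, left of 0) and higher (red, right of 0) with abemaciclib in control cells (left panel) and FAH knockout cells (right panel), for the 34 members, 7 lists of splicing genes and all 16218 tested genes. Members, hnRNP-type proteins and snRNP core genes have mostly lower calls, and the SR kinase list has 5 lower and 4 higher of 20 in control cells.

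Levels between members were compared per kilobase of merged exons (GENCODE release 29), as the mean of the 4 groups. HNRNPF (138 CPM per kb), HNRNPAB (130), HNRNPA1 (113), SRSF9 (99.4) and SRSF2 (92.8) were highest. HNRNPA1L2 (1.82), SRSF4 (3.78), HNRNPLL (3.89) and SRSF10 (6.7) were lowest. Per kilobase, HNRNPH2 stood at 24.7 and 33.5 in control vehicle and control abemaciclib libraries and HNRNPH1 at 20.6 and 16.1, with a merged length of 2223 bases for HNRNPH2 and 9480 for HNRNPH1. These levels assume even coverage along the merged exons, which was not tested.

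The 34 members lie on 17 chromosomes, and 8 besides HNRNPUL2-BSCL2 have a protein-coding neighbour that runs the other way from a start at most 1000 bases upstream or 100 bases inside the member. CBX3 starts farther inside HNRNPA2B1 and is not among these 8. CBX5, a heterochromatin protein gene 60 bases from HNRNPA1, fell by 0.91 and 0.82 with abemaciclib and was lower in knockout cells (-0.42 under vehicle and -0.33 under abemaciclib), where HNRNPA1 was not. RMI1, a genome stability gene 95 bases from HNRNPK, changed by -1.11 and -1.15, against -0.22 and -0.11 for HNRNPK on the log2 scale. DYNLL1, a dynein light chain gene 57 bases from SRSF9, fell by 0.57 and 0.37 and had an interaction of 0.20 ± 0.0418 (adjusted p = 9.1e-04, limma). GEMIN6, of the snRNP assembly complex and 40 bases from SRSF7, fell by 0.42 and 0.22. CBX3, whose gene overlaps HNRNPA2B1 on the other strand with starts 367 bases apart, fell by 0.40 and 0.19 and had an interaction of 0.21 ± 0.0538. The strand setting of the counting is not given in the sources used here, so reads in such overlaps cannot be told apart.

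Many members have processed copies in the genome. Of 137 hnRNP and SR pseudogene rows, 2 passed the filter, HNRNPCP2 and HNRNPA3P6, and all of them together had 12.6 to 20.3 CPM per library. By their low values, 22 of the 34 members were whole reads in 8 or fewer of the 16 libraries and are uncertain to that extent, among them HNRNPA1, HNRNPA2B1, HNRNPC, HNRNPD, HNRNPH2, HNRNPK, SRSF1, SRSF2 and SRSF3. The 12 others, among them SRSF5, SRSF7, SRSF9, HNRNPF, HNRNPM, HNRNPR and HNRNPU, were whole in 9 or more. SRSF1 overlaps AC015813.2 on the same strand, which had a mean of 67.9 CPM in control vehicle libraries and fell by 0.25 and 0.23 with abemaciclib.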

How the data were processed

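Libraries were grouped and numbered by the titles in the labels. Reads were aligned with STAR 2.7.11, handled with SAMtools 1.22.1, counted with featureCounts of Subread 2.1.1 and summarised with MultiQC 1.32 against GRCh38, as given by the submitters' processing notes. For the annotation release, strandedness and multi-mapped reads nothing is given in the sources used here. The deposited values are CPM per gene, made by the authors and taken as deposited. The smallest step between low values gave the worth of 1 read, 0.0836 to 0.101 CPM, and 70.2 to 71.8% of values were whole reads within 0.02 reads, too few for a count test. A member whole in 8 or fewer libraries was marked uncertain.

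Of the gene symbols, 51 altered by a spreadsheet were restored by gene ID. The 16218 genes that reached 1 CPM in 4 or more libraries were taken to log2(CPM + 1) and fitted with limma 3.58.1 (R 4.3.3) as 4 group means over the 16 libraries, with a mean-variance trend. Tests were two-sided, and p-values were adjusted by Benjamini-Hochberg over every gene tested. The pseudocount of 1 CPM understates changes of low genes. The script was tested on simulated data. Members, lists, tests and alternatives were chosen with earlier results of these data known. Values in every library are given for called members with the 4 largest increases and 4 largest decreases in a group comparison, the 2 largest each way in the interaction, and the highest and lowest expressed member; of each list up to 4 called genes per comparison are named, and 1 of these is not reported here. HNRNPH1, GLA and the neighbours were added after their values were seen. The 24 alternatives changed pseudocount, filter, scaling, variance model, samples in the fit, replicate block or 1 library, and CPM outside mitochondrially encoded genes was chosen after seeing the data. At this depth 1 CPM is about 10 reads.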

Additional observations from a re-analysis of the deposited data

Results flagged for a closer look

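Of 136 groups of 4 libraries (34 members in 4 groups), 10 held a library far from the other 3 by Dixon's criterion of 0.829, and chance alone gives about 1 in 20 such groups. In control vehicle libraries, HNRNPUL1 had 204 CPM in replicate 4 against 222 to 226, SRSF3 had 393 CPM in replicate 4 against 411 to 413, and SRSF2 had 297 CPM in replicate 3 against 320 to 324. In control abemaciclib replicate 1, SRSF7 had 116 CPM against 123 to 124 in the others, and SRSF11 had 141 CPM against 118 to 122. HNRNPA1L2 had 3.48 CPM in knockout vehicle replicate 4 against 2.93 to 3.02. In knockout abemaciclib libraries, replicate 1 had 153 CPM of SRSF5 against 160 in each of the others, and 124 CPM of SRSF1 against 136 to 137. Replicate 4 had 352 CPM of SRSF9 against 360 to 361, and replicate 2 had 73.9 CPM of HNRNPUL2 against 65.4 to 66.5. Of the calls of these members, leaving out the library named here ended that of SRSF11 between genotypes under abemaciclib and that of SRSF2 between genotypes under vehicle (0.07 without control vehicle replicate 3).

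The drug effect differed between control and knockout cells by the interaction term for 10 members. Of these calls, HNRNPA1, SRSF3 and SRSF7 held under every alternative, and each of the other 7 was lost under at least 1 of 23. The interaction was 0.26 for HNRNPA1, 0.25 for SRSF3, 0.25 for SRSF7, 0.22 for HNRNPA3, 0.21 for HNRNPA0, 0.19 for HNRNPA2B1, 0.18 for HNRNPC, 0.18 for SRSF2, 0.18 for HNRNPAB and -0.21 for HNRNPH2 on the log2 scale.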

How the results depend on the processing

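Counts of called members depended most on scaling and on the variance model. With knockout against control under vehicle, median-of-ratios rescaling gave 5 higher and 8 lower. Under abemaciclib, 14 were higher and 2 lower with median-of-ratios rescaling and with quantile normalization, 2 lower with CPM outside mitochondrial genes, and 0 lower without the filter or without the trend. With abemaciclib in control cells, quantile normalization gave 4 higher. In knockout cells, median-of-ratios rescaling and quantile normalization each gave 3 higher. For the interaction, quantile normalization gave 4 called, 3 of them higher, and no trend gave 4, 4 higher and 0 lower. No filter gave 0 lower and 1072 called genes in all, and CPM outside mitochondrial genes gave 2 lower. SRSF5, not called with the drug in control cells, turned to 0.11 under quantile normalization. Of values called in neither setting, 102 changed sign. The other counts stayed within 1.5 times.

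Leaving out 1 library gave 10 to 13 called members under vehicle between genotypes (7 to 10 higher, 2 to 3 lower) and 20 to 24 under abemaciclib (19 to 23 higher, 0 to 1 lower). It gave 29 to 30 with the drug in control cells (2 higher, 27 to 28 lower), 27 to 28 in knockout cells (1 higher, 26 to 27 lower), and 9 to 13 for the interaction (8 to 12 higher, 0 to 1 lower). All tested genes called ranged from 5454 to 6367, 4235 to 4832, 7705 to 8210, 5645 to 6484 and 1480 to 1888 in the same order. The replicate block gave 13, 23, 29, 27 and 11 called members, and changed only the interaction of HNRNPR (0.17, adjusted p = 0.0424, limma). Of 16 same-number correlations of deviations, 3 were over 0.1 (range -0.134 to 0.202). They were not compared with those of different numbers, so they cannot show whether the numbers pair the libraries.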
